A study of Mus musculus with 4 samples.

Results

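The inflammasome and necroptosis genes Casp1, Casp4, Casp8, Casp12, Nlrp3, Pycard, Il18, Gsdmd, Ripk3 and Mlkl were followed in differentiating primary (1°) mouse oligodendroglial cells (OGCs) without Zfp276. These 10 genes were taken by symbol from a list of inflammatory caspases, inflammasome parts and effectors of lytic cell death. Each symbol occurs once among the 53465 listed genes, and all 10 passed the filter on low counts that left 15766 genes. RNA-Seq was carried out on 2 preparations of ctrl cells (Zfp276 fl/fl) and 2 of Zfp276cko cells (Zfp276 fl/fl with the Sox10::Cre transgene), each pooled from 3 mice aged P2 to P4. The ctrl cells thus carry the floxed allele as well, on the same mixed C3H x C57Bl/6J background. Mixed glial cultures of forebrain were shaken off, depleted of microglia and differentiated for 3 days. Mice bred for these cultures also carried a Rosa26 stopfloxtdTomato reporter allele, and Sox10::Cre, a BAC transgene, deletes in OGCs starting with their precursors, so that other cells in the dish are not its target.

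An inflammasome is a protein scaffold that assembles in the cytosol when a sensor such as Nlrp3 detects damage or infection. The adaptor Pycard (also called ASC) links the sensor to Casp1, which matures interleukin 1β and interleukin 18 and cleaves Gsdmd, whose fragment forms pores in the plasma membrane. Casp4, the mouse caspase-11, reaches Gsdmd directly after binding bacterial lipopolysaccharide. Necroptosis is a second lytic route, in which Ripk3 phosphorylates Mlkl and Mlkl then breaks the plasma membrane, while Casp8 restrains this route by cleaving its kinases. In brain tissue most of these genes are best known from microglia, the resident macrophages.

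Libraries held between 21068322 and 26599809 counted reads. Zfp276 itself, which checks the labels, was at 1648 and 2230 normalized counts in ctrl replicates 1 and 2 against 489.5 and 503 in those of Zfp276cko. Normalized counts were scaled to the average effective library size. The replicates of the genotypes differed unequally, with a biological coefficient of variation of 0.354 in ctrl and 0.0480 in Zfp276cko cells. The ctrl libraries also stand apart in their makeup. Summed over 8 markers of fibroblasts and mural cells, the normalized count was 8957 in ctrl replicate 1 and between 283 and 475 in the other libraries. Most of 8 neuronal markers were sparse in ctrl replicate 1, with a median log2 difference of −3.74 from ctrl replicate 2. Map2, the highest of them, was not, with 14612 and 18853 normalized counts in ctrl replicates 1 and 2. Every comparison below rests on 2 libraries against 2, for which the smallest two-sided p of an exact permutation test is 0.333.

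Most of the 10 genes were higher in Zfp276cko cells, and Mlkl differed most. In 7 genes, Mlkl, Casp4, Pycard, Ripk3, Casp12, Casp8 and Casp1, both libraries of Zfp276cko cells exceeded both of ctrl cells, against 26.8% of all tested genes. Nlrp3 was the 1 gene in which both were lower, where the share of all tested genes is 23.7%. Il18 and Gsdmd overlapped between the genotypes. The median log2 fold change of the 10 genes was 0.56, and that of all tested genes was −0.0013. Without ctrl replicate 1 the median of the 10 genes was 0.84, and without ctrl replicate 2 it was 0.52.

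edgeR's quasi-likelihood test called 0 of the 10 genes as changed. A call required an adjusted p (Benjamini-Hochberg over all tested genes) no higher than 0.05, at least 0.6 of log2 change in size and 20 or more normalized counts on average. The same test called 0% of all tested genes in either direction. When the p was left unadjusted and the other thresholds kept, Casp4, Pycard, Ripk3 and Mlkl were higher and 0 genes lower, against 5.11% higher and 3.02% lower of all tested genes. DESeq2, the tool of the study's methods, called 1 of the 10, Mlkl, as higher and 0 as lower, against 2.8% and 2.11% of the genes to which it gave an adjusted p. The members' counts are read beside these shares only, since the genes were chosen with earlier results of these libraries known.

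**Figure D1:**
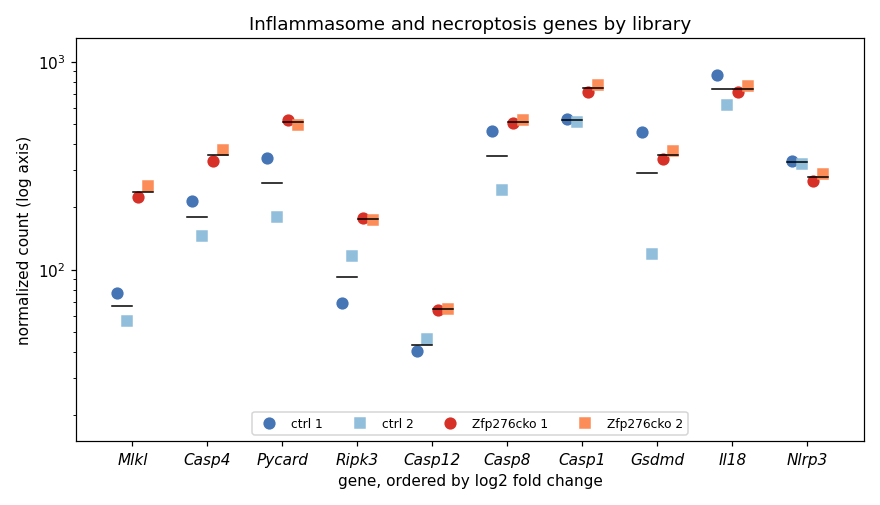
Normalized counts (log axis) of the 10 genes in each of the 4 libraries, ordered by log2 fold change. Circles are replicate 1, squares replicate 2, and short black lines are the means of each genotype. The Zfp276cko libraries lie close together for every gene, at most 1.14-fold apart, while the ctrl libraries are up to 3.86-fold apart for Gsdmd.

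Among the effectors of necroptosis, Mlkl was at 77.2 and 56.3 normalized counts in the ctrl cells of replicates 1 and 2, from 65 and 50 reads, and 223 and 252 in Zfp276cko replicates 1 and 2, from 246 and 293 reads. The lower Zfp276cko library was 2.88-fold above the higher ctrl library. This pseudokinase, the last known step of the route, rose from 66.7 ± 14.8 (SD, n = 2) to 237 ± 20.6 (SD, n = 2) by the call of DESeq2 (log2 fold change 1.81, SE 0.36, adjusted p = 3.48e-05). edgeR's quasi-likelihood test gave 1.83 (SE 0.26, 95% interval 1.13 to 2.53) with an adjusted p of 0.123, which did not pass. The gene spans chr8:111311797-111338177 on the minus strand of mm10. Only 1.83% of all tested genes had a log2 fold change as high or higher. Without ctrl replicate 1 or 2 it was 2.08 or 1.61.

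Ripk3 (chr14:55784995-55788865, minus strand), the kinase upstream of Mlkl, had 68.9 and 115.9 normalized counts in ctrl against 177 and 174 in Zfp276cko cells. Both Zfp276cko libraries were higher than both ctrl libraries, and here ctrl replicate 2 was the higher ctrl library, the reverse of Mlkl. It differed by a log2 fold change of 0.92 (SE 0.32, quasi-likelihood adjusted p = 0.305 by edgeR), with a 95% interval of 0.046 to 1.80. Leaving out ctrl replicate 1 gave 0.60, and leaving out ctrl replicate 2 gave 1.33.

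Casp8 (chr1:58795374-58847503, plus strand) acts at the branch between apoptosis and necroptosis. It had 463 and 241 normalized counts in ctrl against 504 and 522 in Zfp276cko cells. The Zfp276cko libraries thus lay just above ctrl replicate 1 and more than 2-fold above ctrl replicate 2. A log2 fold change of 0.54 (SE 0.35, quasi-likelihood adjusted p = 0.514 by edgeR) had a 95% interval of −0.39 to 1.48. It became 1.09 without ctrl replicate 1 but 0.13 without ctrl replicate 2, so its size rests on ctrl replicate 2.

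The inflammatory caspases Casp1, Casp4 and Casp12 lie side by side on the plus strand of chromosome 9 of mm10, within 74.5 kb. In the GENCODE annotation Casp1 runs from 5298517 to 5307265, Casp4 from 5308828 to 5336783 and Casp12 from 5345430 to 5373032. Such neighbours can share reads, but 0 of the 101-base stretches in their annotated transcripts, the read length here, occur in a transcript of another gene. For all 3 genes the genotypes did not overlap, with Zfp276cko cells higher. Of the members on other chromosomes, Casp8 shares 20 of its 2927 such stretches (0.68%) on the same strand with Gm20257.

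Casp1, the protease of the inflammasome, had 529.5 and 512 normalized counts in ctrl against 717 and 772 in Zfp276cko cells. Its ctrl libraries were only 1.03-fold apart, the closest pair of the 10 genes. Its log2 fold change was 0.51 (SE 0.12, quasi-likelihood adjusted p = 0.190 by edgeR) with a 95% interval of 0.19 to 0.84. This is under the threshold of 0.6 on the fold change, and leaving out any library in turn gave values between 0.46 and 0.57.

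Casp4 had 213 and 145 normalized counts in ctrl against 331 and 377 in Zfp276cko cells, with no overlap. Its mean was 1.98 times that of ctrl, a log2 fold change of 0.99 (SE 0.25, quasi-likelihood adjusted p = 0.215 by edgeR). DESeq2 gave 0.97 with an adjusted p of 0.0532, just outside the threshold. Leaving out ctrl replicate 1 gave 1.29 from edgeR, and leaving out ctrl replicate 2 gave 0.72. Casp12, a relative linked to stress of the endoplasmic reticulum, was sparse, with 34 and 41 reads in ctrl against 71 and 75 in Zfp276cko cells. These correspond to 40.4, 46.1, 64.2 and 64.4 normalized counts. Casp12 had a log2 fold change of 0.57 (SE 0.26, quasi-likelihood adjusted p = 0.395 by edgeR), and its 95% interval of −0.14 to 1.28 includes 0.

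Since most of the 10 genes were higher together, the 250 bases before their starts were searched for 3 motifs in RefSeq sequence of build GRCm38.p6. These were an interferon-stimulated response element (ISRE, searched as GAAA, any 2 bases and GAAA), a STAT site (GAS, TTCNNNGAA) and an NF-κB site (searched as GGG, any 2 bases and TTTCC), each on both strands. Of all 32851 windows searched, 2.98%, 7.02% and 1.41% held a match. Windows end at the RefSeq starts, which can differ from the GENCODE starts given here. Those of Casp4, Casp12 and Ripk3 and a window of Nlrp3 (chr11:59541319-59541568) reach past the GENCODE start into the gene. The only window of Casp8 (chr1:58802252-58802501) and the other window of Nlrp3 (chr11:59542436-59542685) lie wholly inside the gene. A window was found for 9 of the 10 genes, and Gsdmd was not in the table. The ISRE letters matched in 0 of the 9 genes, the GAS letters in 1, Casp12, and the NF-κB letters in 1, Casp4. A match describes the sequence and is not a binding site. The windows of the gene that differed most and of the 2 genes with a match are shown 5′ to 3′ on the strand of the gene, with matches in capitals.
Mlkl, chr8:111338206-111338455, minus strand: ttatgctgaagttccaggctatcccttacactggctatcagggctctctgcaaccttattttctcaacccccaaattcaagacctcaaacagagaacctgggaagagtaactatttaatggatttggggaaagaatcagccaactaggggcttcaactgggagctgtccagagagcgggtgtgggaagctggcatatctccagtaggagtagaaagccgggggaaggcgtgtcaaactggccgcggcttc
Casp4, chr9:5308599-5308848, plus strand: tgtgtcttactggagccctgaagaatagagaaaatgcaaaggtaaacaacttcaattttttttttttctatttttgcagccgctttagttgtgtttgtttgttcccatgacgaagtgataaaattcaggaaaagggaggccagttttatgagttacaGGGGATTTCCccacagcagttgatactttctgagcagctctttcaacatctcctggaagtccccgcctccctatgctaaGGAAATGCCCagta
Casp12, chr9:5345226-5345475, plus strand: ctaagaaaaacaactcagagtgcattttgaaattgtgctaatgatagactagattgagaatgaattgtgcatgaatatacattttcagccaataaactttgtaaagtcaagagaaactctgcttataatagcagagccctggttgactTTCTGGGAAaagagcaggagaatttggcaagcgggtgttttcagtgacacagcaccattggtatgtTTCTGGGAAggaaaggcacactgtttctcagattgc
The NF-κB matches of Casp4 begin 93 and 14 bases before this RefSeq start, or 104 and 25 bases before a second RefSeq start of the gene, and the match nearer to the start is on the minus strand and inside the GENCODE gene. The GAS matches of Casp12 have the same letters, begin 102 and 36 bases before the RefSeq start and read as a match on both strands, and the nearer one lies inside the GENCODE gene.

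Sensor and adaptor lay in opposite directions, and neither passed the test. Nlrp3 (chr11:59541568-59566956, plus strand), the sensor, had 334 and 321 normalized counts in ctrl against 268 and 288 in Zfp276cko cells. Both Zfp276cko libraries were lower, and the ctrl libraries were 1.04-fold apart. Its log2 fold change of −0.24 (SE 0.15, quasi-likelihood adjusted p = 0.524 by edgeR) had a 95% interval of −0.65 to 0.18.

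Pycard (chr7:127989708-127993867, minus strand), the adaptor, had 342 and 179 normalized counts in ctrl against 526 and 494 in Zfp276cko cells. The lower Zfp276cko library was 1.44-fold above the higher ctrl library. Pycard differed by a log2 fold change of 0.97 (SE 0.35, quasi-likelihood adjusted p = 0.312 by edgeR), and leaving out ctrl replicate 1 or 2 gave 1.51 or 0.56. On the opposite strand, the annotated gene Gm45205 overlaps 12.8% of the exon length of Pycard. The strand setting of the counting is not given in the sources used here, so reads of the 2 genes cannot be told apart there.

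The substrates of Casp1 did not separate the genotypes. Il18 (chr9:50554827-50581840, plus strand), the precursor of interleukin 18, had 861 and 621 normalized counts in ctrl against 713 and 766 in Zfp276cko cells, so that both Zfp276cko libraries lay between the ctrl libraries. The log2 fold change was −0.0031 (SE 0.20, quasi-likelihood adjusted p = 0.996 by edgeR), and the 95% interval of −0.53 to 0.53 does not exclude a difference of up to 0.53 in either direction. Gsdmd (chr15:75862327-75867408, plus strand), the pore-forming protein, had 461 and 119 normalized counts in ctrl against 339 and 371 in Zfp276cko cells. Its Zfp276cko libraries likewise lay between the ctrl libraries, which were 3.86-fold apart. The log2 fold change of 0.29 (SE 0.66, quasi-likelihood adjusted p = 0.865 by edgeR) became 1.58 without ctrl replicate 1 but −0.39 without ctrl replicate 2, so that its direction rests on 1 library.

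**Figure D2:**
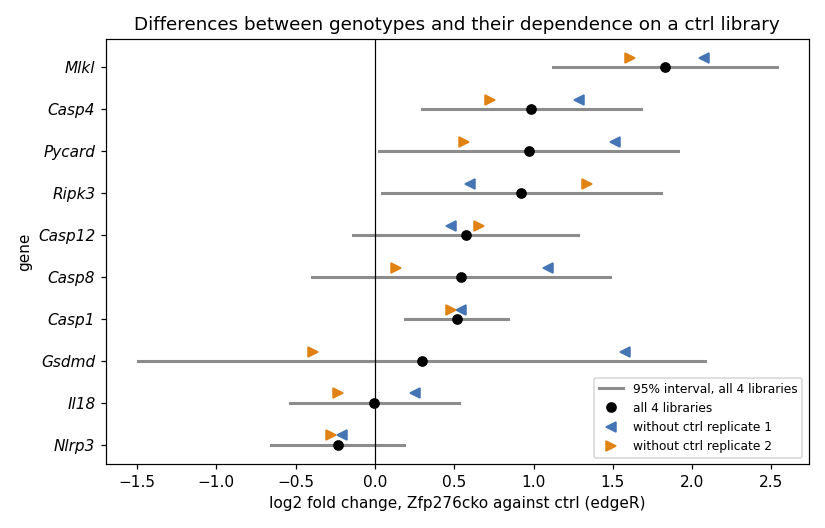
Log2 fold change (Zfp276cko against ctrl, edgeR) of each of the 10 genes with its 95% interval over all 4 libraries, and the value after leaving out ctrl replicate 1 or ctrl replicate 2. The intervals are not adjusted for the number of genes tested. That of Mlkl runs from 1.13 to 2.53, and the triangles of Gsdmd fall on both sides of 0.

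Relative to exon length, the 10 genes covered a wide range. In RPKM, reads relative to exon length and TMM-scaled library size, Il18 was highest with 25.5 to 35.3 over the 4 libraries, followed by Casp1 with 14.5 to 21.8. Casp12 was lowest with 0.444 to 0.709. These 3 genes did not overlap with their neighbours in this order. Between them came Casp8, Gsdmd, Pycard, Nlrp3, Casp4, Mlkl and Ripk3, with means from 6.32 down to 2.47, and each of them overlapped with the next over the 4 libraries. In ctrl cells Mlkl was at 1.42 and 1.03 and thus below Nlrp3 (3.48 and 3.34), while in Zfp276cko cells it was at 4.09 and 4.62 and above Nlrp3 (2.79 and 2.998).

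The ctrl libraries differed among themselves in the 10 genes. Ctrl replicate 1 was higher than ctrl replicate 2 in 8 genes and lower in 2, Casp12 and Ripk3. In 4 genes, Casp8, Pycard, Gsdmd and Ripk3, the ctrl libraries were more than 1.5-fold apart. The median absolute log2 difference over the 10 genes was 0.51 between the ctrl libraries and 0.10 between the Zfp276cko libraries, beside 0.32 and 0.095 over all tested genes.

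Other genes of the same routes were grouped in 6 lists, written with earlier results of these libraries known. Of 68 listed genes, 52 passed the filter, and in 33 of these both libraries of Zfp276cko cells exceeded both of ctrl cells, in 0 they were lower, beside 26.8% and 23.7% of all tested genes. edgeR's quasi-likelihood test called 0 of the 52. When the p was left unadjusted, 14 were higher and 0 lower, beside 5.11% and 3.02% of all tested genes, and DESeq2 called 11 higher and 0 lower, beside 2.8% and 2.11%. The median log2 fold change was 0.36. Genes called below as chosen later were picked after their values were seen.

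Among 11 tested sensors and adaptors the median log2 fold change was 0.57. DESeq2 called 1 of them, Txnip, as higher, beside 2.8% of genes with an adjusted p. In 8 of the 11 both Zfp276cko libraries exceeded both ctrl libraries, against 26.8% of all tested genes. In 0 they were lower, where the share is 23.7%, and 3 overlapped. Txnip, a thioredoxin-binding protein that can activate Nlrp3, had 1172 and 1294 normalized counts in ctrl against 2672 and 2888 in Zfp276cko cells (log2 fold change 1.16 from DESeq2, adjusted p = 1.03e-09). Panx1, a channel protein with the highest mean of this list, overlapped between the genotypes with a log2 fold change of −0.20 from edgeR. Of the sensors beside Nlrp3, Nlrp12 had no count in any library, which allows up to 3 per library, and Nlrp6, chosen later, had between 1 and 4. Other sensors were well counted, such as Naip2, also chosen later. Naip2 had 747 and 514 normalized counts in ctrl against 910 and 956 in Zfp276cko cells.

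In the interleukin 1 family, DESeq2 called 2 of 7 tested genes higher and 0 lower, beside 2.8% and 2.11% of genes with an adjusted p. Both encode inhibitors, and edgeR's quasi-likelihood test called 0 of the 7. In 3 of the 7 both Zfp276cko libraries exceeded both ctrl libraries, against 26.8% of all tested genes. Among these was Il1a, chosen later, which encodes interleukin 1α and was not called by DESeq2. Il1a had 188 and 19.1 normalized counts in ctrl against 347 and 341 in Zfp276cko cells (log2 fold change 1.74 from edgeR). Il1b, which encodes interleukin 1β, had 896 and 59.6 normalized counts in ctrl against 92.3 and 113 in Zfp276cko cells. edgeR gave −2.22 (SE 1.26, quasi-likelihood adjusted p = 0.472) as the log2 fold change, and 0.78 without ctrl replicate 1. Il1rn, the antagonist of the interleukin 1 receptor, rose from 139 and 171 normalized counts in ctrl to 651 and 724 in Zfp276cko cells by the call of DESeq2 (log2 fold change 2.13, adjusted p = 9.35e-15). Il18bp, chosen later, encodes the protein that neutralizes interleukin 18. It had 145 and 228 normalized counts in ctrl against 733 and 702 in Zfp276cko cells and was called by DESeq2 with a log2 fold change of 1.93. The receptor genes for interleukin 18 were hardly counted, with no read of Il18r1 in any library and at most 3 of Il18rap, both chosen later. Il1rap, the shared receptor chain with the highest mean of the 7 tested genes, had a log2 fold change of 0.092 from edgeR. The median of the 7 was 0.34, but 1.11 without ctrl replicate 1 and 0.0027 without ctrl replicate 2.

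Of 9 listed gasdermins and rupture genes beside Gsdmd, only Gsdme and Ninj1 passed the filter, and DESeq2 called 0 of these 2. Gsdme, another pore-forming gasdermin, had 103 and 86.6 normalized counts in ctrl against 153 and 159 in Zfp276cko cells, which is 0.71 as log2 fold change (SE 0.22, quasi-likelihood adjusted p = 0.268 by edgeR). Ninj1, which ruptures the membrane of dying cells, had a log2 fold change of 0.39 (SE 0.23, quasi-likelihood adjusted p = 0.491 by edgeR). For both, the Zfp276cko libraries lay above the ctrl libraries, as for 26.8% of all tested genes.

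For the 11 apoptotic caspases and apoptosome genes the median log2 fold change was 0.23. In 8 of the 11 both Zfp276cko libraries exceeded both ctrl libraries, against 26.8% of all tested genes. In 0 they were lower, where the share is 23.7%, and 3 overlapped. DESeq2 called 1 of the 11 higher and 0 lower, beside 2.8% and 2.11% of genes with an adjusted p. The values of edgeR were 0.14 for Bax, the gene of the list with the highest mean, and −0.23 for Cycs, which encodes cytochrome c.

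The 16 death receptors and necrosome regulators had a median log2 fold change of 0.15. Zbp1, a nucleic acid sensor that engages Ripk3, had the largest difference of this list, with 228 and 25.9 normalized counts in ctrl against 1457 and 1449 in Zfp276cko cells. The ctrl libraries were far apart, but both lay well below the Zfp276cko libraries. Zbp1 differed by a log2 fold change of 3.52 (SE 0.98, quasi-likelihood adjusted p = 0.236 by edgeR), and DESeq2 gave an adjusted p of 0.0980. Leaving out ctrl replicate 1 or 2 gave 5.81 or 2.66.

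Ripk1 and Fadd, which with Casp8 form the complex that decides between survival and death, overlapped between the genotypes with log2 fold changes of 0.17 and −0.057 from edgeR. Cflar, the partner that keeps Casp8 in check, had 1453 and 1347 normalized counts in ctrl against 2072 and 2233 in Zfp276cko cells. It was called higher by DESeq2 with a log2 fold change of 0.60 (adjusted p = 0.00921), as were Tlr3 and Tnfaip3, both chosen later, with 2.04 and 1.05. Birc3 and Xiap, inhibitors of apoptosis, had log2 fold changes of −0.31 and −0.041 from edgeR.

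All 5 tested guanylate-binding proteins and related GTPases, which help to expose bacterial lipopolysaccharide to Casp4, were higher in both Zfp276cko libraries. They are targets of interferon, and their median log2 fold change was 2.75. DESeq2 called 4 of them, Gbp3, Gbp7, Gbp2 and Gm12250, of which the last 2 were chosen later. Gbp7 had 223 and 126 normalized counts in ctrl against 2271 and 2454 in Zfp276cko cells (log2 fold change 3.74 from DESeq2, adjusted p = 6.08e-28). Gbp5 had the smallest log2 fold change of the list, 1.91 from edgeR, with 29.7 and 142 normalized counts in ctrl against 320.3 and 324 in Zfp276cko cells. At 0.99, Casp4 had a lower log2 fold change than each of these GTPases, and the difference was not tested.

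**Figure D3:**
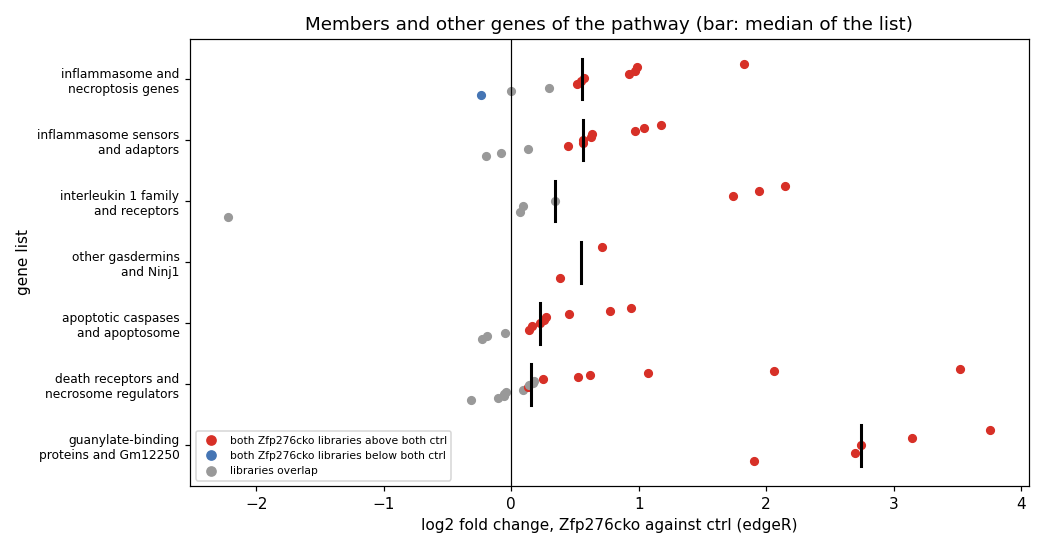
Log2 fold change (Zfp276cko against ctrl, edgeR) of each tested gene of the 10 inflammasome and necroptosis genes and of the 6 lists of related genes. Points are genes, coloured by whether both Zfp276cko libraries lie above or below both ctrl libraries or overlap, and vertical bars are medians. The guanylate-binding proteins have the highest median, 2.75, and the necrosome regulators the lowest over the 4 libraries, 0.15.

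The labelled cell type was present in all libraries. Sox10 and 9 further markers of oligodendrocytes had summed normalized counts between 222007 and 439320. For 9 of the 10 both ctrl libraries exceeded both libraries of Zfp276cko cells, against 23.7% of all tested genes. Markers of microglia and macrophages were present as well. Of 20 listed markers 19 passed the filter, and Siglech had no count in any library. Adgre1, a surface antigen of macrophages, had 14772 and 10649 normalized counts in ctrl against 11501 and 11499.7 in Zfp276cko cells.

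The summed level of the 19 microglial markers was 97859 and 67567 in ctrl against 76063 and 77234 in Zfp276cko cells, so that the genotypes overlapped. Of the 19, 4 lay above both ctrl libraries in both Zfp276cko libraries (Cx3cr1, Cd68, Ptprc and Spi1) and 1 below (Fcrls), all 5 chosen later. Over all tested genes these shares are 26.8% above and 23.7% below. The other 14 markers overlapped, and the median log2 fold change of the 19 was 0.14. The sum of the 10 inflammasome and necroptosis genes was 3389 and 2356 in ctrl against 3862 and 4078 in Zfp276cko cells, with no overlap. Ctrl replicate 1 exceeded ctrl replicate 2 in both sums. In bulk RNA, more cells of a type and more RNA per cell cannot be told apart, and the part of microglia in the levels of the 10 genes was not tested.

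**Figure D4:**
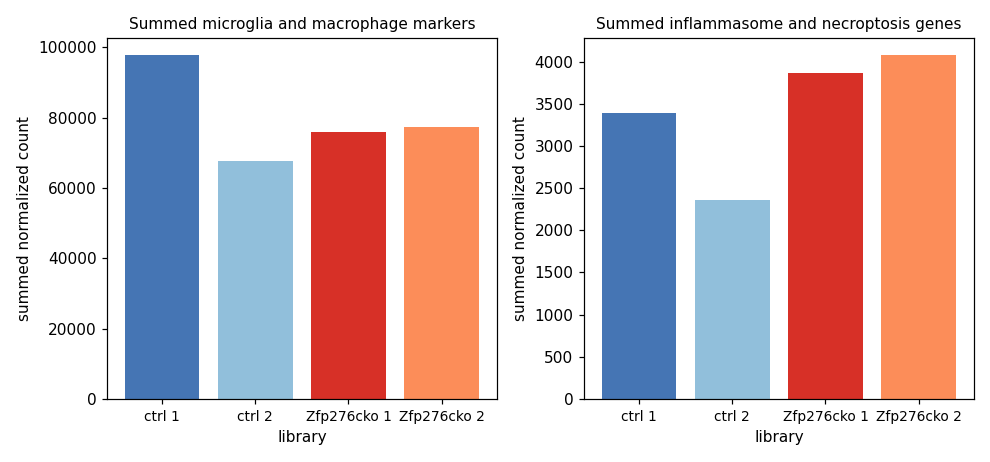
Summed normalized counts of the 19 tested microglia and macrophage markers (left) and of the 10 inflammasome and necroptosis genes (right) in each library. The marker sum of both Zfp276cko libraries, 76063 and 77234, lies between those of the ctrl libraries, while the sum of the 10 genes in Zfp276cko cells, 3862 and 4078, lies above both ctrl libraries.

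Markers of other cells did not follow the same pattern. The summed level of 9 astrocyte markers was between 30085 and 35216 in the 4 libraries, but single markers differed in opposite directions between ctrl replicates 1 and 2, with 17641 and 8463 normalized counts of Gfap and 2674 and 6747 of Slc1a3. The sum of the 8 neuronal markers, between 15840 and 25333, was mostly Map2. Gad1, an enzyme of inhibitory neurons, was at 78.4 and 2002 normalized counts in ctrl replicates 1 and 2, with 920.2 and 1003 in Zfp276cko cells between them. Slc1a3 and Gad1 were chosen later, and the part of these differences in the levels of the 10 genes was not tested. The 4 endothelial markers tested summed to between 176 and 296. The endothelial marker Cldn5 and the leukocyte markers Ncr1 and Ly6g had no read in any library.

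The genes most like the mean profile of the 10 genes over the 4 libraries were Gstt1, Capn1, Decr1, Gm39469 and Clec4a1. Likeness was measured as the Euclidean distance between centred log2 CPM among 14198 genes outside the lists, and it was between 0.0321 and 0.0599 for these 5. The mean profile itself stood at −0.12 and −0.56 in ctrl replicates 1 and 2 and at 0.31 and 0.38 in Zfp276cko replicates 1 and 2. Profiles over 4 libraries are short, and 126 genes lay within a distance of 0.2.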

How the data were processed

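RNA-Seq was performed on 2 ctrl and 2 Zfp276cko preparations of 1° mouse OGCs, as single reads of 101 bases from a stranded mRNA kit. Reads were aligned by the authors against mm10 using STAR (2.5.4a), and the deposited values are raw counts in rows named by gene symbol. Of the symbols, 108 are listed more than once. For the counting, the paper names HTSeq and the submitters' processing notes name featureCounts (1.5.1). Here, edgeR's filterByExpr function with default settings kept 15766 genes and 99.9% of the counts, and counts were normalized with TMM. The genotypes were the only term of the edgeR model, whose quasi-likelihood p-values were adjusted after Benjamini and Hochberg. DESeq2 was run on all listed genes. DESeq2 1.42.0, edgeR 4.0.16 and limma 3.58.1 ran in R 4.3.3. Intervals are 95% intervals from the quasi-likelihood test and are not adjusted for the number of genes tested. Counted reads came to 21311469 and 21068322 in ctrl and 25265366 and 26599809 in Zfp276cko replicates 1 and 2. Precision was judged from 2 preparations per genotype. Positions, exon lengths and transcript sequences came from GENCODE M21 (GRCm38, the build of mm10), and sequences before gene starts from RefSeq.

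The members and lists were chosen with earlier results of these data known. Genes named in the text are the 10 members, Zfp276, Il1b, Zbp1, Ripk1, Fadd and Cflar, the genes of each list with the highest mean and the highest and lowest log2 fold change, markers at 0 or highest in their list, and the 5 genes most like the members. A gene that this rule names is not reported here. As alternatives, each library was left out, the replicate number was entered as a block, DESeq2, limma voom or edgeR's likelihood ratio test took the place of the main test, p-values were left unadjusted, DESeq2 size factors replaced TMM, and the filter was dropped or set to 10 counts per library.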

Additional observations from a re-analysis of the deposited data

How the results depend on the processing

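The 10 genes kept a positive median log2 fold change under all alternatives, with the lowest value of 0.52 without ctrl replicate 2 and the highest of 0.84 without ctrl replicate 1. Wherever both ctrl libraries were kept, 7 genes lay above both and 1 below both. Without ctrl replicate 1, 9 genes lay above the remaining ctrl library and 1 below it. Without ctrl replicate 2, 7 lay above the remaining ctrl library and 3 below it. The counts of called genes depended on the tool. DESeq2 called 1 of the 10 genes higher, with 445 higher and 335 lower of all genes, and 11 related genes higher. The likelihood ratio test called 1 of the 10 higher, with 428 higher and 268 lower of all genes, and 11 related genes higher. An unadjusted p gave 4 of the 10 higher, with 806 higher and 476 lower of all genes, and 14 related genes higher. Over all genes, 8 were called higher when no filter was applied. limma voom called 0 genes.

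Leaving out a ctrl library leaves a fit in which the spread comes from the Zfp276cko pair alone. Over the 4 libraries left out in turn, called genes ranged from 0 to 1792 higher and from 0 to 1286 lower over all genes, from 0 to 5 higher among the 10, and from 0 to 26 higher and 0 to 3 lower among related genes. The highest numbers came without a ctrl library, and the 5 were found without ctrl replicate 1. Median log2 fold changes ranged from 0.35 to 1.15 for sensors and adaptors, from 0.0027 (without ctrl replicate 2) to 1.11 (without ctrl replicate 1) for the interleukin 1 family, from 0.14 to 0.21 for apoptotic genes, from 0.096 to 0.26 for necrosome regulators and from 2.69 to 3.48 for guanylate-binding proteins. For gasdermins the median was −0.32 without a filter and −0.37 with DESeq2, where genes of a few counts enter the list.

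The log2 fold change of Zfp276 was −1.97 with an adjusted p of 0.0962 from edgeR's quasi-likelihood test. It passed the thresholds with DESeq2 (−1.98), the likelihood ratio test (−1.97) and an unadjusted p (−1.97), and lay between −2.17 and −1.75 with a library left out. The log2 fold changes of 5 genes changed sign. Il18 was at 0.021 without a filter, 0.0098 with at least 10 counts in every library, 0.014 with a replicate block, 0.019 with limma voom, 0.052 without Zfp276cko replicate 1, and between −0.23 (without ctrl replicate 2) and 0.25 (without ctrl replicate 1). Without ctrl replicate 1 or 2, respectively, Gsdmd was at 1.58 or −0.39, Ripk1 at 0.37 or −0.016, Fadd at −0.26 or 0.16 and Il1b at 0.78 or −3.14. The causes were not tested.

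Replicate numbers are shared between the genotypes, and nothing in the labels pairs them. The deviations of same-numbered libraries from their group means correlated at −0.0043. With the replicate block 0 genes were called, as without it, and the median of the 10 genes was 0.597.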
